A study of Homo sapiens with 6 samples.

Results

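The replication-dependent histone genes of WM164 cells were compared between cells described as overexpressing GFP and cells described as overexpressing T-MGM. WM164 is an established human melanoma line, GFP (green fluorescent protein) is the control, and T-MGM is a tethered dimer in which MAFG, a small MAF transcription factor, is fused through a flexible linker to MITF, the transcription factor of the melanocyte lineage. Per the study's methods, both were carried by lentiviral vectors under the EF1α promoter with a blasticidin marker, and no cloning of single cells after selection is stated. Total RNA was sequenced from 3 GFP and 3 T-MGM libraries, with no other treatment, time point or genotype in the labels. Members were the protein-coding genes of the count table whose symbol belongs to the HIST1, HIST2, HIST3 or HIST4 clusters (or the newer H1, H2AC, H2BC, H3C and H4C names), which gave 71 of 58870 genes.

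These genes encode the linker histone H1 and the core histones H2A, H2B, H3 and H4, around which DNA is wound into nucleosomes. They sit in clusters of intronless copies, are transcribed mainly in S phase when new chromatin must be packed, and make the only metazoan mRNAs that usually end in a short stem-loop in place of a poly(A) tail. The stem-loop binding protein SLBP holds that structure, and cutting after it frees the mature 3′ end. Other RNAs made without a poly(A) tail, S-phase genes and the factors that make and process histone mRNA are therefore given beside them.

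Total counts were 35057239 to 38738065 in the GFP libraries and 44577774 to 59250663 in the libraries labelled T-MGM. The melanocyte markers SOX10, MITF, PMEL, MLANA, TYR and DCT were present in every library. Their log2 fold changes were -2.49 (SE 0.028) for DCT, -0.68 for MLANA and -0.35 for TYR, which fell. Those of SOX10, MITF and PMEL were 0.05 to 0.11. All 3 passed as higher in counts, and none did in TPM. The summed TPM (transcript abundance, a level scaled for length and depth) of 12 markers of fibroblasts, keratinocytes, epithelium, leukocytes and endothelium was 3.83 to 4.98 in GFP and 4.8 to 6.34 in T-MGM, with none of them at 0 in all 6 libraries. Of the 5 that could be tested, the fibroblast genes COL1A1 and LUM rose in counts but not in TPM, and the part of such cells in the results below was not tested. The fused genes did not bear out the group labels. MAFG differed by -0.06 (SE 0.039) (DESeq2 adjusted p = 0.236) and MITF by 0.08 (SE 0.015) (adjusted p = 4.8e-07), neither over 2-fold. Their summed TPM was 146.8 to 149.2 in GFP and 137.9 to 143.5 in T-MGM. Groups are named here by the library titles, and why neither gene passed 2-fold was not tested. Nothing in the labels says whether the 3 libraries of a group came from separate cultures, so p-values measure the spread between these libraries.

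The stem-loop was present in every member, and its sequence is shown for the genes that moved most and for abundant genes of both main clusters. Within the 100 bases after the stop codon, all 71 members held a stem-loop of 16 bases, starting 22 to 67 bases after the stop (median 35). There were 10 spellings of it, and the commonest was in 41 members. Below, capitals mark the stem-loop within 26 bases of the GRCh38 genome, read on the gene's strand.
HIST1H1A (chr6:26017032-26017057, minus strand): ccaacGGCTCTTTTAAGAGCCaccta
HIST1H1B (chr6:27866792-27866817, minus strand): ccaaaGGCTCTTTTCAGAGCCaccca
HIST1H1E (chr6:26157090-26157115, plus strand): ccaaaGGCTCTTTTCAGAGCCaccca
HIST1H2AJ (chr6:27814303-27814328, minus strand): acaaaGGCTCTTTTCAGAGCCacttc
HIST1H4J (chr6:27824454-27824479, plus strand): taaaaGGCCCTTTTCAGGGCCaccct
HIST4H4 (chr12:14770719-14770744, minus strand): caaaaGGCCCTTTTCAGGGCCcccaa
HIST2H2BE (chr1:149886183-149886208, minus strand): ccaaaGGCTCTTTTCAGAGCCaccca
HIST2H2AA4 (chr1:149851569-149851594, plus strand): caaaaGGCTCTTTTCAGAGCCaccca
HIST2H4A (chr1:149833027-149833052, plus strand): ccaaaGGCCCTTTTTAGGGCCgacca
HIST2H3PS2 (chr1:143905508-143905533, minus strand): ctaaaGGCTCTTTTCAGAGCCactgc
The 16-base element of the most raised gene, HIST1H1A, was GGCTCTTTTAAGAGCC, a spelling found in 10 members. HIST1H1B and HIST1H1E, which rose, HIST2H2BE, which fell, and HIST2H2AA4, which did not pass, all carried the commonest element. Spelling was not set against direction over all members.

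Most members were higher in T-MGM, by modest amounts, and the direction followed the chromosome. Of the 71 members, 65 passed the mean-count filter of DESeq2 and were tested. At an adjusted p at or under 0.05, 45 were higher and 7 lower. Across all 19135 tested genes the same rule called 19.2% higher and 19.2% lower. Their median log2 fold change was 0.40, against -0.003 over all tested genes, and 0.23 with offsets for GC content and length. Requiring in addition more than a 2-fold change left 1 member higher (HIST1H1A) and 2 lower (HIST2H3PS2 and HIST2H2AA3), where the background was 3.26% higher and 1.36% lower. Normalized counts in GFP and T-MGM were fully separate for 45 members that were higher and 8 that were lower, against 23.4% of all genes in each direction. The split of 45 higher and 7 lower became 38 and 12 with offsets for GC content and length. The share over all genes with these offsets is not given here or below. In TPM the split was 38 and 10, where 8.44% of all genes were higher and 31.9% lower.

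The HIST1 cluster on the short arm of chromosome 6 held 55 members, and 44 of its 50 tested members rose while none fell. Their median log2 fold change was 0.44 (range -0.28 to 2.27). The HIST2 group on the long arm of chromosome 1 held 12 members, of which 7 fell and none rose, with a median of -0.19 (-0.40 with the offsets). Neither tested member of the HIST3 group, also on chromosome 1, passed the test, and the single HIST4 gene, on chromosome 12, rose. Within HIST1, the direction was shared along the cluster. The members between 25.7 and 26.3 Mb had a median log2 fold change of 0.41 (26 of 30 tested rose), those at 27.1 Mb 0.54 (5 of 5), and those between 27.8 and 27.9 Mb 0.44 (13 of 15).

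**Figure D1:**
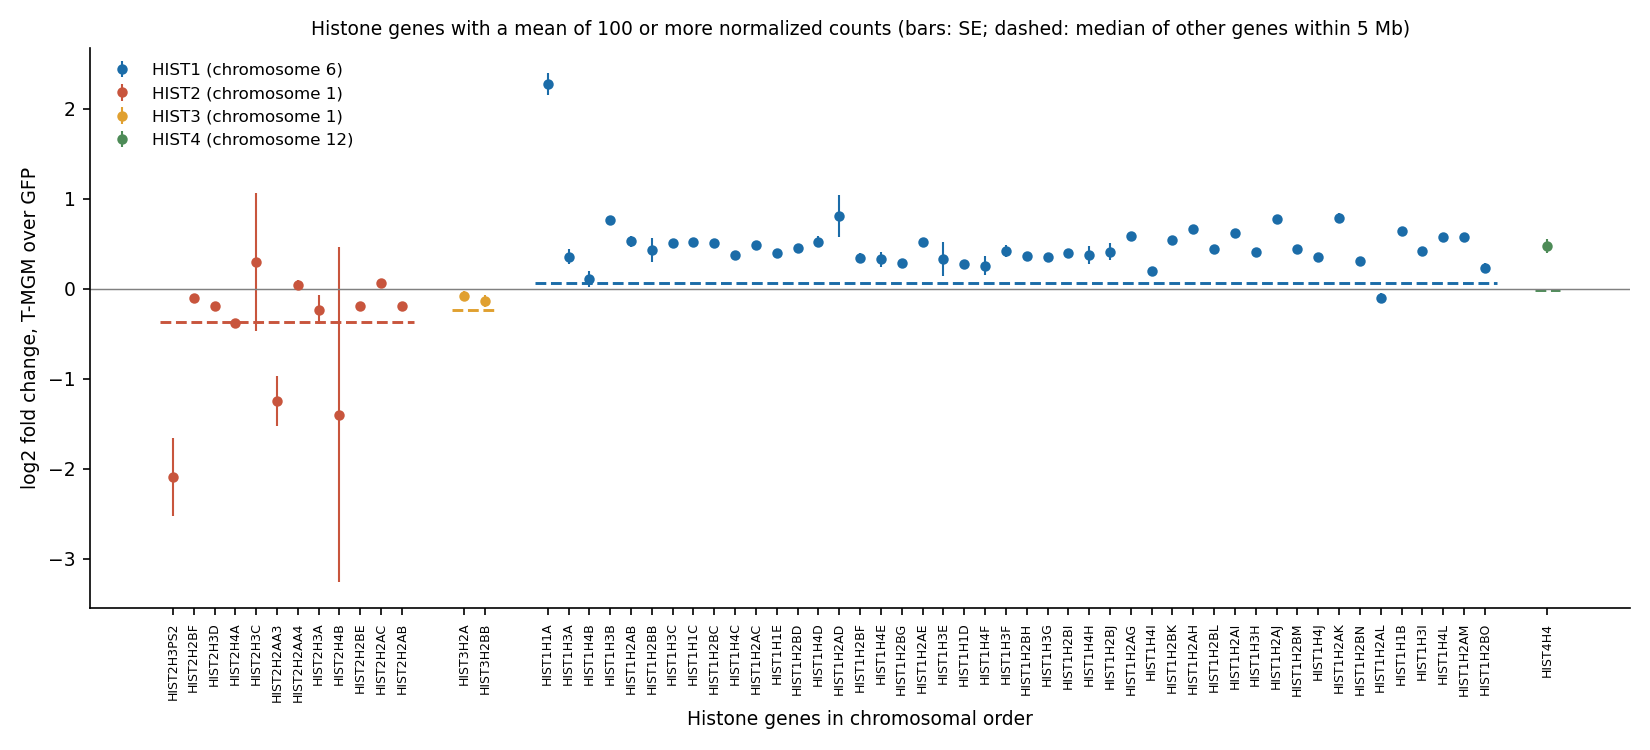
Log2 fold change of T-MGM over GFP (y axis, DESeq2 on counts) for the 61 histone genes with a mean of at least 100 normalized counts, in chromosomal order (x axis) and coloured by cluster; bars are the SE and dashed lines the median of other genes within 5 Mb of each cluster. HIST1 genes lie above 0 except HIST1H2AL, HIST1H1A stands at 2.27, and the wide bars in HIST2 belong to HIST2H3C and HIST2H4B, members of copied pairs.

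As a share of all counts, members together took 6412 to 6493 CPM (counts scaled to the same library total) in the GFP libraries and 7447 to 7639 in the libraries labelled T-MGM, a ratio of the means of 1.17. The HIST1 members summed to 4120 to 4192 CPM in GFP and 5446 to 5655 in T-MGM (ratio 1.34). The HIST2 members moved the other way, from 2179 to 2225 in GFP to 1908.5 to 1929 in T-MGM (ratio 0.87). Accordingly the count of HIST1 over HIST2 in the same library was 1.86, 1.88 and 1.92 in GFP against 2.93, 2.82 and 2.96 in T-MGM, and the groups did not overlap. In TPM the same quotient was 2.96, 2.98 and 3.03 in GFP against 4.64, 4.51 and 4.77 in T-MGM.

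**Figure D2:**
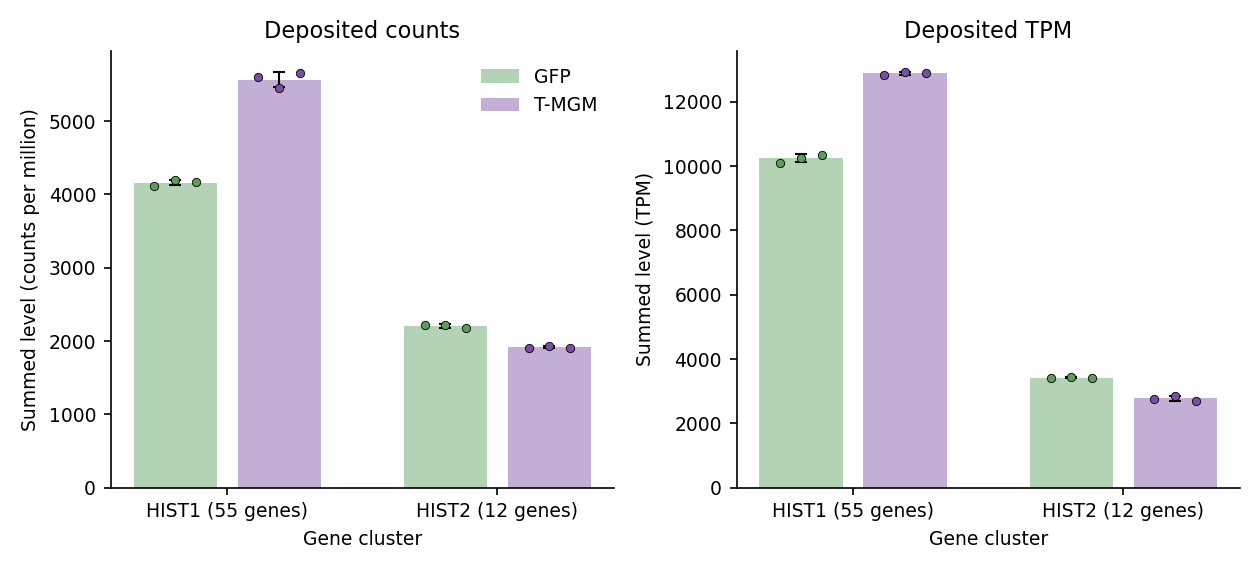
Summed level of the HIST1 and HIST2 members in each library, in CPM (left) and TPM (right), with points for libraries, bars for group means and error bars for the SD (n = 3). HIST1 was higher and HIST2 lower in every T-MGM library than in any GFP library, in both tables.

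Among the linker histones, which bind the DNA between nucleosomes, all 6 genes lie in HIST1, and 5 of them rose. HIST1H1A (ENSG00000124610.4, chr6:26017032-26017787 of GRCh38, minus strand) encodes H1.1, a minor linker histone in most cultured cells, and had normalized counts of 115, 157 and 115 in GFP against 653, 585 and 639 in T-MGM. Those groups lay far apart, at a mean of 129 ± 24.1 in GFP and 626 ± 35.8 in T-MGM (SD, n = 3). The log2 fold change was 2.27 (SE 0.12), a fold of 4.83 (95% limits 4.09 to 5.71) (DESeq2 adjusted p = 3.41e-74). In TPM it rose from 5.69 ± 1.07 in GFP to 24.7 ± 1.11 in T-MGM (SD, n = 3). It nevertheless remained a small part of H1 mRNA. Its share of the summed H1 TPM was 0.281%, 0.373% and 0.272% in GFP against 1.09%, 1.02% and 1.08% in T-MGM. Its neighbour HIST1H3A, an H3 gene named here after its values were seen, changed by 0.36 (SE 0.083).

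The abundant linker genes rose by less. HIST1H1E (H1.4), the most abundant H1 gene in counts and TPM, had normalized counts of 24943, 25364 and 25305 in GFP against 33624, 32413 and 33968 in T-MGM. Its log2 fold change was 0.40 (SE 0.017) (adjusted p = 7.7e-123). HIST1H1B (H1.5) had 10926, 11679 and 11644 in GFP against 18428, 17807 and 17092 in T-MGM, again without overlap. Its log2 fold change was 0.64 (SE 0.044) (adjusted p = 5.59e-47). HIST1H1C (H1.2), one of the genes also reported with polyadenylated transcripts, had 7545, 7412 and 7716 in GFP against 10910.1, 10713 and 10922 in T-MGM, and rose by 0.52 (SE 0.021). HIST1H1D (H1.3) had 3099, 3236 and 3407 in GFP against 4049, 3685 and 4091 in T-MGM. Its change was the smallest of the H1 genes that passed, 0.28 (SE 0.04) (adjusted p = 3.06e-11), and in TPM, at 0.12 on the log2 scale, it did not pass (limma adjusted p = 0.0758). HIST1H1T, the testis-specific H1, named after its values were seen, had normalized counts of 11.99, 4.33 and 11.4 in GFP against 18.2, 27.3 and 19.2 in T-MGM (adjusted p = 0.0687). Summed over the 6 genes, H1 took 1109 to 1147 CPM in GFP and 1500 to 1555 in T-MGM, a ratio of 1.35.

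**Figure D3:**
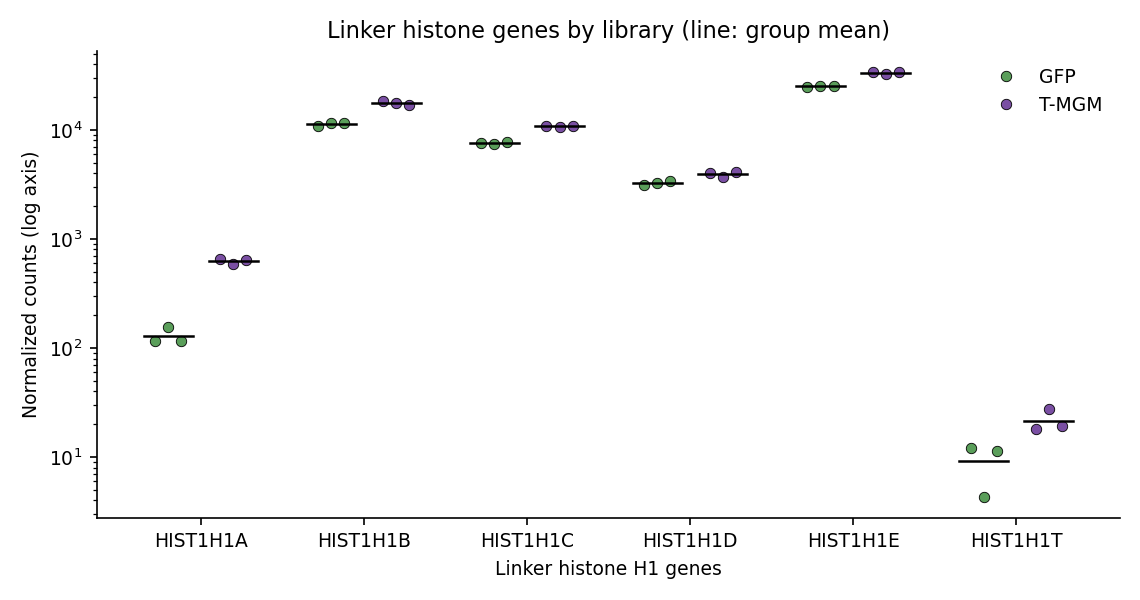
Normalized counts (y axis, log scale) of the 6 linker histone genes in each of the 3 GFP and 3 T-MGM libraries; lines are group means. The T-MGM libraries lie above the GFP libraries for every gene, with HIST1H1A moving from 115 to 157 in GFP to 585 to 653 in T-MGM; HIST1H1T did not pass the test.

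Promoters of HIST1H1A and HIST1H1E, which rose to different extents, and of HIST2H2BE, which fell, are printed for comparison (RefSeq starts, GRCh38.p14, 250 bases before to 50 after the start). Capitals mark the TATA box (TATAAA), the CCAAT box (CCAAT) and the H1 box (AAACACA), each searched on both strands.
HIST1H1A promoter (chr6:26017738-26018037, minus strand): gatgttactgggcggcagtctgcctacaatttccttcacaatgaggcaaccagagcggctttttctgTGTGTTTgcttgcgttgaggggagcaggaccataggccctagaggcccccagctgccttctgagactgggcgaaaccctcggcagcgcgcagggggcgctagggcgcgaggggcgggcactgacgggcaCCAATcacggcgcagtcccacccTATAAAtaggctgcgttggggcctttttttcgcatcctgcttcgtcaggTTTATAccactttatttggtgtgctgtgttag
HIST1H1E promoter (chr6:26156079-26156378, plus strand): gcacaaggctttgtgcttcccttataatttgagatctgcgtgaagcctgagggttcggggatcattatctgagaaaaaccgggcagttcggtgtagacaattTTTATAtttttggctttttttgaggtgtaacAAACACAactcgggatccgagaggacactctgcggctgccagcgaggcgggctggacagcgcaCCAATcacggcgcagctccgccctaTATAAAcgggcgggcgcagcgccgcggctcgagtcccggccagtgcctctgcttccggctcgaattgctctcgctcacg
HIST2H2BE promoter (chr1:149886633-149886932, minus strand): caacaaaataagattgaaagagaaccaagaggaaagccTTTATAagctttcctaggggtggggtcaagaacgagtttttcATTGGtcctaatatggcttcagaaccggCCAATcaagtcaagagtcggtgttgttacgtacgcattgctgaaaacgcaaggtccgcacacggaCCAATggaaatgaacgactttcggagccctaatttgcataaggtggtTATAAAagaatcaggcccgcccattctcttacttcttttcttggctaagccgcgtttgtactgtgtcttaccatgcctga
In these windows HIST1H1A held a TATAAA starting 31 bases before its start and a CCAAT at 54, where HIST1H1E held them at 29 and 54 and HIST2H2BE a TATAAA at 30 and a CCAAT at 77. The H1 box, long known as an element of H1 promoters, was found at 117 bases in HIST1H1E and, on the other strand, at 183 bases in HIST1H1A. Of the 66 members matched to a RefSeq promoter, 44 held TATAAA (11.5% of all 35116 promoters did), 56 held CCAAT (34.6%) and 9 held AAACACA (5.64%), among them all 6 H1 genes. The E-box spellings CACGTG and CATGTG, letters that MITF is known to bind, were in none of the 66, against 7.26% and 11.1% of all promoters. The letters TGCTGA, part of the element that small MAF proteins bind, were in 9 (17.3% of all promoters). The AP-1 letters TGACTCA were in none (4.95% of all promoters) and the CRE letters TGACGTCA in 9 (1.85%). These matches describe letters only, and their absence from a window of this length says nothing of binding elsewhere. TATAAA was in 33 of 50 matched HIST1 promoters and in 10 of 15 on chromosome 1, and CCAAT in 43 of 50 and 13 of 15.

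H2A genes of HIST1 rose most among the core histones. H2A pairs with H2B on the outside of the nucleosome, and 10 of the 11 tested HIST1 H2A genes rose, with a median log2 fold change of 0.59. HIST1H2AJ had normalized counts of 4019.6, 4083 and 4155 in GFP against 6909, 6843 and 7199 in T-MGM. The groups did not overlap, and the log2 fold change was 0.77 (SE 0.028) (DESeq2 adjusted p = 5.09e-166). HIST1H2AI had 5471, 5462 and 5247 in GFP against 7964, 8371 and 8518 in T-MGM, a change of 0.62 (SE 0.028). HIST1H2AG, the most abundant H2A gene of HIST1 by normalized count, had 9437, 9639 and 9569 in GFP against 14085, 14265 and 14828 in T-MGM, and its change was 0.59 (SE 0.021) (adjusted p = 1.16e-167). HIST1H2AE, another abundant H2A gene, changed by 0.52 (SE 0.027), and HIST1H2AC, also reported with polyadenylated transcripts, by 0.49 (SE 0.03). HIST1H2AD (0.81, SE 0.23) and HIST1H2AK (0.79, SE 0.051), named after their values were seen, had the 2 highest H2A fold changes. The exception in the family was HIST1H2AL, also named afterwards, at 1521, 1560.2 and 1518 in GFP against 1425, 1324 and 1519 in T-MGM. Its counts overlapped between groups (-0.11, SE 0.054, adjusted p = 0.117), although in TPM it fell by 0.28 on the log2 scale (limma adjusted p = 0.00107).

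H2B genes of HIST1 rose in 13 of 14 tested members, with a median log2 fold change of 0.41. HIST1H2BK, at 4264, 4306 and 4258 in GFP against 6354, 5995 and 6301 in T-MGM, showed the largest H2B change, 0.54 (SE 0.028) (adjusted p = 4.32e-79). HIST1H2BC, at 5339.9, 5509 and 5484 in GFP against 7753, 7621 and 7959 in T-MGM, changed by 0.52 (SE 0.025). Both genes are on the list of members also reported with polyadenylated transcripts. HIST1H2BM and HIST1H2BL changed by 0.44 (SE 0.034) and 0.44 (SE 0.034). HIST1H2BF and HIST1H2BN, among the most abundant H2B genes of the cluster by normalized count though not by TPM, rose least of those named. Their changes were 0.34 (SE 0.054) and 0.31 (SE 0.025). In HIST1H2BF the T-MGM libraries spread more than the GFP libraries, from 8938 to 10031 against 7416 to 7736. The member that did not pass was HIST1H2BE, named after its values were seen, whose normalized counts were 37.2, 24.9 and 25.1 in GFP against 31.0, 23.4 and 17.7 in T-MGM.

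H3, whose tail carries most of the well-known histone marks, rose in 7 of 9 tested HIST1 genes (median log2 fold change 0.42). HIST1H3B had normalized counts of 2671, 2696 and 2670.5 in GFP against 4481, 4638 and 4558 in T-MGM. The groups did not overlap and the log2 fold change was 0.77 (SE 0.032) (adjusted p = 3.84e-126), the largest among H3 genes. HIST1H3C, the H3 gene of HIST1 with the highest TPM, had TPM values of 537, 529 and 536 in GFP against 693, 689 and 660 in T-MGM. In counts its change was 0.51 (SE 0.025) (adjusted p = 2.57e-95). HIST1H3H and HIST1H3G changed by 0.41 (SE 0.031) and 0.35 (SE 0.026).

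H4, which pairs with H3 in the core tetramer, rose in 9 of 10 tested HIST1 genes, with the lowest family median in the cluster, 0.36. HIST1H4J, the H4 gene with the highest TPM, had normalized counts of 7491, 7518 and 7413 in GFP against 9347, 9637 and 9630.1 in T-MGM. The T-MGM libraries were all higher, by 0.35 (SE 0.022) (adjusted p = 4.67e-57). HIST1H4L, at 3418, 3151 and 3468 in GFP against 4990.2, 4737 and 5199 in T-MGM, changed by 0.57 (SE 0.038), more than HIST1H4C at 0.38 (SE 0.029). HIST1H4E had 5851, 5748 and 5778 in GFP against 7703, 6401 and 7704 in T-MGM. T-MGM replicate 2 was the lowest of its group, and the change of 0.33 (SE 0.086) (adjusted p = 0.000545) did not pass in TPM (limma adjusted p = 0.0729). The single HIST4 gene, HIST4H4, encodes the same H4 protein from chromosome 12. Its normalized counts were 529, 538 and 485 in GFP against 744, 680 and 734 in T-MGM and it changed by 0.48 (SE 0.08) (adjusted p = 1.84e-08).

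In HIST2, 7 of 12 genes fell and none rose. HIST2H2BE, an H2B gene also reported with polyadenylated transcripts, had normalized counts of 13464, 13754 and 13171 in GFP against 11759.5, 11644 and 11947 in T-MGM. Each T-MGM library was below each GFP library, and the log2 fold change was -0.19 (SE 0.02) (adjusted p = 3.27e-21). HIST2H2AB, an H2A gene, had 3878, 3789.5 and 3735 in GFP against 3291, 3350.4 and 3314 in T-MGM, a change of -0.20 (SE 0.031). HIST2H3D, an H3 gene, had 3651, 3735 and 3783 in GFP against 3388, 3242 and 3179 in T-MGM, a change of -0.19 (SE 0.033). HIST2H2BF, the most abundant H2B gene by normalized count, fell least, by -0.10 (SE 0.017) (adjusted p = 9.34e-08). The gene with no change that passed, although none of its 100-base windows was found elsewhere, was HIST2H2AC (named after its values were seen), at 0.06 (SE 0.043) (adjusted p = 0.277). Of the 4 HIST2 genes without any 100-base stretch of their exons repeated elsewhere in the genome, 3 fell and none rose.

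HIST2H3PS2 (H3-7, ENSG00000203818.7), an H3 gene that lies apart from the others at chr1:143894544-143905977 (GRCh38, GENCODE 44), fell most. Its normalized counts were 197, 205 and 166 in GFP against 25.5, 35.1 and 71.6 in T-MGM. The groups did not overlap, and the fold was 0.235 (95% limits 0.130 to 0.423) (log2 fold change -2.09, SE 0.43, DESeq2 adjusted p = 7.56e-06). In TPM it fell from 18.1 ± 1.85 in GFP to 3.74 ± 1.99 in T-MGM (SD, n = 3). Its annotated exons run 10969 bases past the stem-loop and overlap 2 genes on the same strand and 1 on the other, and 3.46% of its 100-base windows occur elsewhere, so which transcript gave these reads is uncertain.

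The second lowered call, HIST2H2AA3, belonged to a copied pair. Around 149.8 Mb of chromosome 1 the cluster holds 3 pairs of genes in near-identical copies. HIST2H2AA3 and HIST2H2AA4 (H2A) were 99.8% identical over their exons, HIST2H4A and HIST2H4B (H4) 100%, and HIST2H3A and HIST2H3C (H3) 99.2%. Every 100-base window (the read length of the study) within the exons of these 6 genes occurred elsewhere in the genome. A read of that length within an exon thus cannot be assigned to 1 copy from its sequence. The study's methods state that uniquely aligned reads were counted, yet 5 of the 6 genes held counts in all libraries, as given next.

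HIST2H2AA3 had normalized counts of 3611, 4581 and 5484 in GFP against 1982, 1392 and 2409 in T-MGM, and its copy HIST2H2AA4 24907, 23835 and 22691 in GFP against 24221, 25663 and 23764 in T-MGM. The first was lower (-1.24, SE 0.28, adjusted p = 4.08e-05) and the second did not pass (0.04, SE 0.05, adjusted p = 0.554). HIST2H2AA3 took 12.7%, 16.1% and 19.5% of the counts of the pair in GFP against 7.57%, 5.15% and 9.21% in T-MGM. Taken as a pair, the genes summed to 670.7 to 678.3 CPM in GFP and 598.6 to 622.1 in T-MGM, a ratio of 0.90 rather than the 0.423 of HIST2H2AA3 alone.

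The other pairs showed the same steadiness of the sum beside unsteady shares. HIST2H4B had normalized counts of 566, 686 and 254 in GFP against 0, 298 and 273 in T-MGM, while HIST2H4A had 6974, 6953 and 7488 in GFP against 5639, 5330.0 and 5440.1 in T-MGM. HIST2H4A fell (-0.38, SE 0.03, adjusted p = 3.71e-37) and the pair fell from 179.4 to 184.3 CPM in GFP to 129.4 to 130.7 in T-MGM, a ratio of 0.71 and the lowest of the 3 pairs. HIST2H3C took 6.54%, 5.30% and 30.02% of its pair in GFP against 21.3%, 19.7% and 14.9% in T-MGM. GFP replicate 3 thus stood apart within its own group, and HIST2H3A (-0.23, SE 0.16, adjusted p = 0.276) did not pass. Without GFP replicate 3 HIST2H3A passed at -0.38 (adjusted p = 2.51e-10) and HIST2H3C was called higher, at 1.49 (SE 0.21, adjusted p = 1.6e-11), against 0.30 (SE 0.77, adjusted p = 0.824) with all libraries. The pair of HIST2H3A and HIST2H3C summed to 359.0 to 378.5 CPM in GFP and 317.9 to 324.6 in T-MGM, without overlap (ratio 0.87). Leaving out the 6 copied genes, 45 members were higher and 5 lower of 59 tested, and the remaining members summed to a ratio of 1.25.

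**Figure D4:**
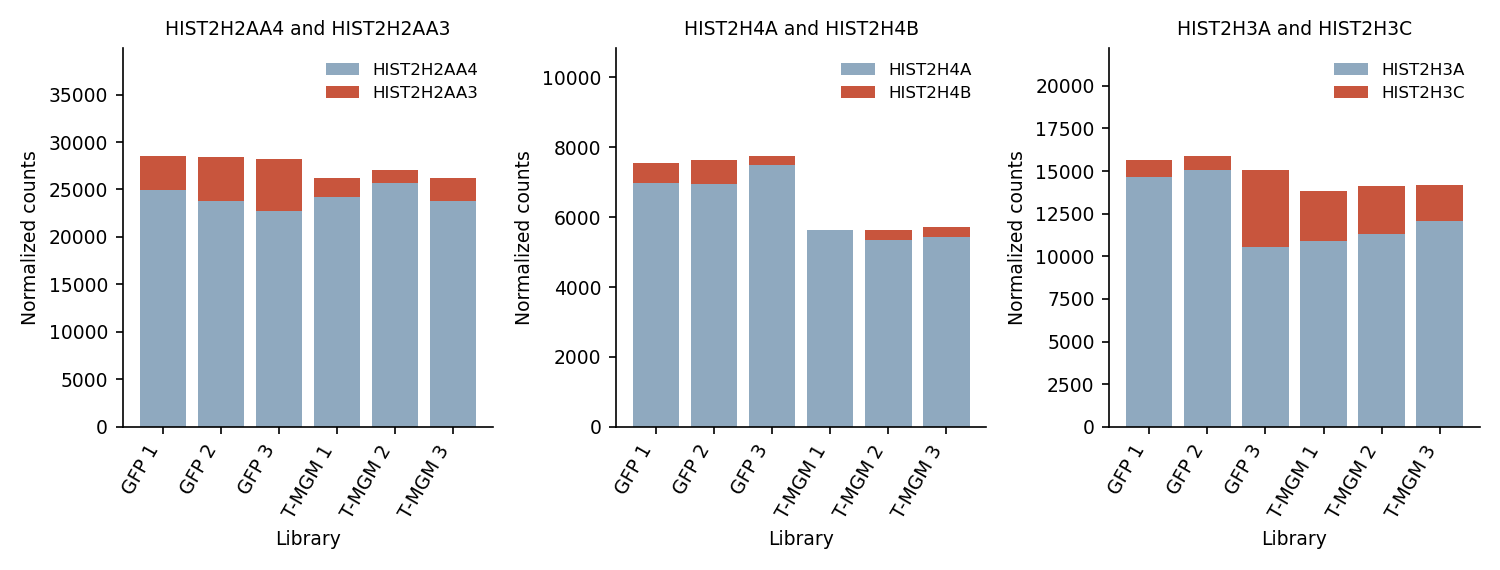
Normalized counts (y axis) of 3 pairs of near-identical HIST2 genes in each library (x axis), stacked so that the bar height is the sum of the pair. The division between copies shifts from library to library, as in HIST2H3C of GFP replicate 3 and the absent HIST2H4B of T-MGM replicate 1, while the sums are lower in all T-MGM libraries.

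The HIST3 genes, an H2A and an H2B gene with 1 nearly silent H3 gene, did not pass (both named after their values were seen). HIST3H2A had normalized counts of 1576, 1639 and 1448 in GFP against 1416, 1547 and 1454 in T-MGM, which overlapped (-0.08, SE 0.054, adjusted p = 0.268). HIST3H2BB had 982, 981 and 1077 in GFP against 885, 924 and 962 in T-MGM, without overlap (-0.13, SE 0.064, adjusted p = 0.09).

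The 6 members that could not be tested were at or near 0. HIST1H3D and HIST1H4G had no count in any library. The exons of HIST1H3D overlap another gene on the same strand, so where reads of that stretch were counted is uncertain. HIST1H2AA and HIST1H2BA, genes known from the testis, had 3 and 1 counts, each in a single GFP library. HIST3H3, the testis H3 gene, had 7 counts in T-MGM replicate 1 and none elsewhere. HIST1H4K had 0 counts in 4 libraries, and 3 and 4 counts in T-MGM replicates 2 and 3. At 3 counts or fewer in every library, 4 of these genes were at the floor of the count table, and no fold is given for the 6.

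Other genes on the same chromosome stretches were set beside the members, which was decided only once the data had been examined. Distances were measured from the whole span of each cluster. For HIST2 that span ran from HIST2H3PS2 at 143.9 Mb to 149.9 Mb, with the gap between included. Within 5 Mb of HIST2, 121 other genes with a mean of at least 50 normalized counts had a median log2 fold change of -0.37, with 83 lower and 10 higher. For this count and that near HIST1, the shares over all tested genes, without that minimum, were 19.2% lower and 19.2% higher. The HIST2 members, at a median of -0.19, stood above the -0.37 of the 121 genes. The surrounding median was, however, -0.44 within 2 Mb and -0.20 within 10 Mb, where it was close to that of the members. Near HIST3 the median of 61 genes was -0.23. Near HIST1, in contrast, 114 other genes had a median of 0.06 (40 higher, 14 lower), below the 0.44 of the members, and near HIST4 39 genes had a median of -0.01. With offsets for GC content and length the medians of members and surrounding genes were 0.35 and 0.02 for HIST1 and -0.40 and -0.39 for HIST2. The part of the wider chromosome stretch in the HIST2 result was not tested.

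In TPM the members kept the division by cluster while the whole scale sat lower. Of 50 HIST1 members 37 rose and 1 fell in TPM (limma on log2(TPM + 1), adjusted p at or under 0.05), and of 12 HIST2 members none rose and 7 fell, against 8.44% higher and 31.9% lower of 13674 genes. The median change was 0.26 for HIST1 and -0.35 for HIST2 on the log2(TPM + 1) scale. The median of all genes on that scale was -0.12, with HIST1 above that median and HIST2 below it. Both HIST3 genes also passed as lower in TPM. Summed over members, TPM was 13590 to 13843 in GFP and 15665 to 15873 in T-MGM (ratio 1.15), or 1.37% and 1.57% of all transcripts by the means.

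**Figure D5:**
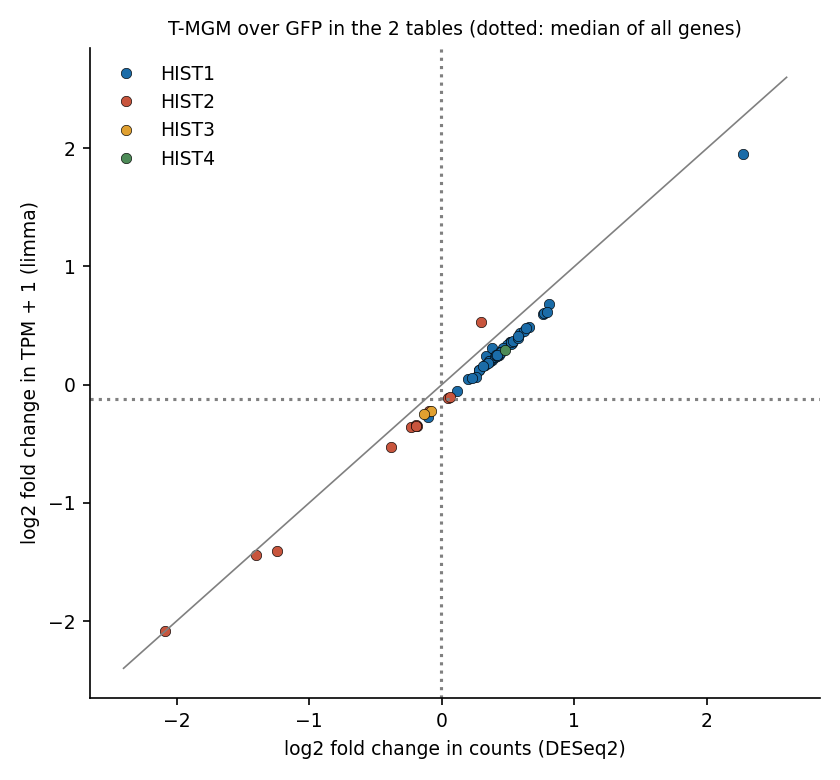
Log2 fold change in counts (x axis, DESeq2) against log2 fold change in TPM + 1 (y axis, limma) for members with a mean of at least 100 normalized counts, coloured by cluster; the line marks equality and dotted lines the medians of all genes. Most points lie slightly below the line, HIST2H3C being above it, and HIST1 members lie above HIST2 members on both axes apart from HIST1H2AL and HIST2H3C.

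Family by family, the summed TPM rose for H1 from 1842 ± 41.4 to 2325 ± 38.1 (SD, n = 3; ratio 1.26) and for H2B from 2948 ± 20.9 to 3394 ± 21.2 (ratio 1.15). For H2A the sums were 4384 ± 44.04 and 4880 ± 104 (ratio 1.11), for H3 1797 ± 27.2 and 2022 ± 43.97 (ratio 1.13), and for H4 2768 ± 33.8 and 3117 ± 25.5 (ratio 1.13). For H2A the ratio was 1.36 within HIST1 and 0.84 within HIST2. No library of either group overlapped with the other in any of these 5 family sums.

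How the transcripts end was examined from annotation. Of the 71 members, 17 have a spliced transcript annotated and 18 are annotated for more than 200 bases past the stem-loop. HIST1 members with and without a spliced transcript had median log2 fold changes of 0.41 and 0.44. The 5 HIST1 members listed as also reported with polyadenylated transcripts all rose, with a median of 0.52, against 0.42 for the other 45 tested HIST1 members. HIST2H2BE, on the same list, fell. Exons of members had a median GC content of 56.1%, above the 47.9% of tested genes. HIST1 members at or above the median GC of members had a median change of 0.53, and those under it 0.39. In 12 members the exons overlap another gene, including HIST1H2AC, HIST1H2BC, HIST2H2AB and HIST2H2BF. The overlap was on the same strand in 7 members and on the opposite strand in 6. The labels and methods name library kits that differ in whether strand is kept, so counts of overlapping genes on opposite strands are uncertain. Counts in same-strand overlaps, as in HIST1H2AC and HIST1H2AD, are uncertain with either kit.

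Some other RNAs without a poly(A) tail also moved. Of 18 tested genes of that list, 6 rose and none fell, with a median log2 fold change of 0.17. Of all tested genes, 19.2% were higher and 19.2% lower by the same rule. RN7SL1, the RNA of the signal recognition particle, rose by 0.41 (SE 0.045) and RN7SK, which holds the elongation factor P-TEFb, by 0.39 (SE 0.049). SNORD3A (U3) rose by 0.37 (SE 0.04), RN7SL2 by 0.17 (SE 0.041) and SCARNA10 by 0.25 (SE 0.033), while RPPH1, the RNA of ribonuclease P, at 0.14 (SE 0.065), did not pass (adjusted p = 0.0794). RNU2-2P, a copy of the U2 spliceosomal RNA, rose by 1.22 (SE 0.39) from 11.99, 17.3 and 22.8 normalized counts in GFP to 40.1, 36.1 and 45.01 in T-MGM. Lower values that did not pass were those of SNORA73A (-0.24, SE 0.17), SNORA73B (-0.27, SE 0.15) and SCARNA5 (-0.11, SE 0.12). The absence of lower calls did not hold elsewhere: 2 genes were lower by edgeR, 1 without T-MGM replicate 1 and 4 with offsets for GC content and length. In TPM 4 rose and 4 fell, against 8.44% higher and 31.9% lower of all genes. SNORA73A, SNORA73B and SCARNA5 were lower there (limma adjusted p = 0.00595, 0.0025 and 0.0185), and RN7SL2 and SCARNA10 did not pass. The list summed to 242074 to 246553 TPM in GFP and 268366 to 274354 TPM in T-MGM. Beside the list median of 0.17, the median was 0.44 for HIST1 and -0.19 for HIST2, whose members all hold the stem-loop. The part of the shifts in RNAs without a poly(A) tail in the HIST1 and HIST2 results was not tested.

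Replication-independent histones are made throughout the cycle from ordinary polyadenylated mRNAs. They moved in both directions, as 4 of 11 tested genes rose and 1 fell (3 and 3 in TPM). The shares of all tested genes were 19.2% higher and 19.2% lower, and in TPM 8.44% and 31.9%. H2AFJ had normalized counts of 223, 205 and 207 in GFP against 588, 621 and 621 in T-MGM. It was the only one past 2-fold (1.53, SE 0.1, adjusted p = 3.84e-49). H2AFX, whose protein marks DNA breaks and whose mRNA can also end in a stem-loop, rose by 0.37 (SE 0.021). H1FX, a linker variant, rose by 0.34 (SE 0.053) and H3F3B, encoding H3.3, by 0.17 (SE 0.013). H2AFZ (H2A.Z) fell by 0.34 on the log2 scale, from 36427 ± 157 to 28837 ± 197 normalized counts (SD, n = 3). H3F3A, H2AFV, H2AFY, H1F0 and CENPA, at log2 fold changes between -0.21 and 0.04, did not pass.

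Of 8 genes for the transcription of histone genes, 6 fell and 1 rose, all within 2-fold. In TPM 5 were lower and none higher, and with the offsets 3 were lower and none higher. Over all tested genes 19.2% fell and 19.2% rose, and in TPM 31.9% fell and 8.44% rose. NPAT, the coactivator of histone loci, fell by 0.15 on the log2 scale (adjusted p = 0.00175) and CASP8AP2 (FLASH) by 0.22 (adjusted p = 4.2e-07). POU2F1 (OCT1), which acts on H2B promoters, fell by 0.28 and the cyclin genes CCNE1 and CCNE2 by 0.21 and 0.20. CDK2, the partner of cyclin E, fell by 0.09, whereas E2F1 rose by 0.15, a call lost without GFP replicate 1 or GFP replicate 3. HINFP, the activator of H4 genes, was at -0.06 (SE 0.12) (adjusted p = 0.766).

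Of 11 genes for 3′ end processing, 1 rose and 3 fell, and in TPM none rose and 6 fell. For this and the decay and chaperone lists below, the shares of all tested genes were 19.2% higher and 19.2% lower. In TPM those shares were 8.44% and 31.9%. SLBP was at 0.08 (SE 0.038) (adjusted p = 0.0693), and LSM10 and LSM11 of the U7 particle at -0.08 (SE 0.064) and -0.03 (SE 0.12), none of which passed. SYMPK, the scaffold of the cleavage complex, rose by 0.33 (SE 0.037), and SRRT (ARS2), NCBP2 and CSTF2 fell by 0.13, 0.21 and 0.14 on the log2 scale. Of 9 genes for histone mRNA decay and translation, 3 rose and 2 fell (1 and 2 in TPM). EXOSC10, a nuclease of the nuclear exosome, fell by 0.66 (adjusted p = 2.4e-198), TUT4 by 0.25, while MIF4GD (SLIP1), a partner of SLBP in translation, rose by 0.50 (SE 0.092) and ERI1, the exonuclease of the histone stem-loop, by 0.22 (SE 0.061). DDX19B also rose, by 0.13 (SE 0.055) (adjusted p = 0.0498). Of 20 histone chaperones and their partners, 6 rose and 9 fell (1 and 12 in TPM), among them ASF1B (0.29, SE 0.045) and CABIN1 (0.41, SE 0.027) upwards and ANP32E (-0.58, SE 0.031), HAT1 (-0.31, SE 0.035) and NASP (-0.24, SE 0.018) downwards.

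Of 24 S-phase genes, 14 rose and 5 fell, where 19.2% of all tested genes rose and 19.2% fell. Their median log2 fold change was 0.12 against 0.44 for HIST1. In TPM 4 rose (MCM5, RRM2, GINS2 and TK1) and 9 fell, where 8.44% of all genes were higher and 31.9% lower. The summed TPM overlapped between groups, at 1421 to 1440 in GFP and 1409 to 1446 in T-MGM. Leaving out GFP replicate 3 or T-MGM replicate 3 left 3 lower in counts. TK1 rose by 0.55 (SE 0.036), MCM5 by 0.41 (SE 0.021), GINS2 by 0.33 (SE 0.051) and RRM2 by 0.26 (SE 0.014). PCNA, the sliding clamp, fell by 0.13 and RFC4 by 0.18. None of the 24 passed 2-fold. Of 18 mitosis genes, 6 rose and 6 fell, with a median of 0.03. In TPM none rose and 9 fell, against the same 8.44% and 31.9% of all genes. Whether the cells differed in the share in S phase was not measured in these libraries, and in bulk RNA more cells in S phase and more histone RNA per cell cannot be told apart.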

How the data were processed

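RNA was sequenced from WM164 cells in 3 GFP and 3 T-MGM libraries, grouped and numbered by their titles. Per the labels' processing notes and the study's methods, the authors trimmed reads with cutadapt 1.8.1 and aligned them to GRCh38 with STAR 2.7.7a. Per the methods, the authors took reads with a unique alignment into featureCounts, and the deposited counts are whole numbers, not normalized. Counts in copied genes with no unique window leave it uncertain whether this table is that output or estimated counts rounded. The authors computed the deposited TPM values with RSEM 1.3.0. The annotation release is not given in the sources used here. The labels name a non-stranded library kit and the methods a strand-specific one.

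Counts were tested with DESeq2 1.42.0 in R 4.3.3 (Wald test, 2-sided, group as the only term, median-of-ratios size factors, Benjamini-Hochberg adjustment over all genes, independent filtering at a mean normalized count of 2.52). A gene was called at an adjusted p at or under 0.05 and over 2-fold. Normalized counts are counts divided by size factors. TPM was tested with limma 3.58.1 on log2(TPM + 1), for genes with a TPM of at least 0.5 in 3 libraries. The DESeq2, edgeR and limma fits were tested on simulated data. Summed levels carry no test.

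Members and lists were chosen with earlier results of these data known. Named genes were the 30 members with the highest mean normalized count, members called, up to 5 members under a mean of 10, MAFG, MITF and the listed genes. Others are said to have been named afterwards. All 71 members were placed in GENCODE 44, 66 by identifier and 5 through an older symbol in RefSeq. Repeated sequence was counted in windows of 100 bases within the merged GENCODE 44 exons of members, searched for exact matches over the GRCh38 chromosomes. Windows across splice junctions were not searched. Alternatives were edgeR 4.0.16, TMM or total-count scaling, count minimums, no independent filtering, lowess offsets for GC content and length (span 0.3), the replicate number as a block, each library left out, and other TPM settings. Counts without molecular identifiers do not count independent molecules, so the floor of 3 counts covers counting error only.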

Additional observations from a re-analysis of the deposited data

How the results depend on the processing

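The counts of members called and of members under the adjusted p stayed within 1.5 times under every alternative: 2 to 4 called and 44 to 53 under the adjusted p over all settings, with HIST1H1A higher and HIST2H3PS2 lower throughout. HIST1 members higher numbered 34 to 45 and HIST2 members lower 5 to 10. The medians moved by more than the spread between libraries without changing sign. For all members, HIST1 and HIST2 in that order, the median log2 fold change was 0.35, 0.38 and -0.25 with total counts, 0.23, 0.35 and -0.40 with offsets for GC content and length, 0.24, 0.35 and -0.40 with these offsets and the replicate block, 0.24, 0.26 and -0.35 for log2(TPM + 1), 0.25, 0.28 and -0.35 for log2(TPM + 0.1), and 0.24, 0.25 and -0.35 for log2(TPM + 1) without a minimum; the cause was not tested. The ratios of summed levels (1.17, 1.34 and 0.87 in CPM) were 1.15, 1.26 and 0.81 in TPM and 1.22, 1.39 and 0.90 with size factors, and 1.25 for all members without the copied HIST2 genes, a setting chosen after the data were examined. Leaving out each library gave medians of 0.36 to 0.41 for all members, 0.41 to 0.46 for HIST1 and -0.21 to -0.18 for HIST2, ratios of 1.17 to 1.18, 1.33 to 1.35 and 0.86 to 0.87, 3 to 4 members called and 50 to 53 under the adjusted p. The fourth called member without GFP replicate 3 was HIST2H3C, of a copied pair, which was higher there.

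HIST2H2AA4, whose change did not pass, reversed from 0.04 to -0.0092 with total counts, to -0.20 with the offsets, with and without the block (where it was under the adjusted p, at 0.00104 and 0.00423), and to -0.11 in all TPM settings. The median of genes beside HIST4 reversed from -0.0091 to 0.056 within 2 or 10 Mb, and that beside HIST2 was -0.44 within 2 Mb and -0.20 within 10 Mb. Same-numbered libraries did not deviate together (correlations across genes of -0.0067, -0.0579 and 0.0291), so the numbers were not taken as pairs. With the replicate block, 3 members were called and 50 were under the adjusted p (43 higher, 7 lower), with a median of 0.40, 0.43 in HIST1 and -0.19 in HIST2. The effect of depth was not tested, and 61 members had a mean of at least 100 normalized counts. The 6 untested members were too close to 0 for a comparison.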
